A study of Mus musculus with 104 samples.

Results

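D4 is an siRNA duplex, conjugated to the sugar N-acetylgalactosamine (GalNAc), whose guide strand pairs with the mRNA of transthyretin (Ttr), and the 4 libraries described here came from primary mouse hepatocytes transfected with it at 50 nM. They were chosen by their treatment label and set apart from the other 100 libraries of the series, and were set against 8 libraries labelled mock. All of these cells were bought primary mouse hepatocytes. With the siRNAs they were plated in a 384-well plate with the transfection reagent Lipofectamine RNAiMax and lysed after 24 h. The labels call the mock libraries a transfection control and give them the same protocol, without saying what took the place of the duplex. RNA was measured by stranded total RNA sequencing. Further groups of 4 libraries each were used for direct comparisons, namely D4 at 10 nM, D5 at 50 nM, which has the D4 sequence with the G at guide position 6 replaced by a glycol nucleic acid (GNA) nucleotide, and D1 at 50 nM, which is a duplex of another sequence against hydroxyacid oxidase 1 (Hao1). For D4 at 0.1 and 1 nM and for D6 at 50 nM, which carries the isonucleotide GNA-isoG at that place, only levels are given. The labels name no animal, sex, age or strain, and nothing in them says that replicates came from separate cultures, so p-values measure only the spread between these libraries, which may be technical. The question asked here was which transcripts other than the target change at the highest dose of D4, the parent duplex without GNA.

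In RNA interference the guide strand is loaded into an Argonaute protein, which cuts a transcript that pairs along the whole guide. A transcript that pairs only with the seed, the bases near the 5′ end of the guide, can be repressed as a microRNA target is, mostly through sites in its 3′-UTR. Transthyretin is a plasma carrier of thyroxine and of the retinol-binding protein and is made in the liver by hepatocytes, the cells that also make most plasma proteins and carry out bile acid, urea and drug metabolism.

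The bases that pair with positions 2 to 8 of the D4 guide read CTCTATA in a transcript, and an A after them, opposite position 1, gives the 8-base match CTCTATAA. Only the transcript strand was searched. Of the 20952 mouse 3′-UTRs of the GENCODE M39 annotation (the longest per gene), 3.04% held CTCTATAA, 9.15% held CTCTATA and 13.6% held TCTATAA, which is the match to positions 2 to 7 followed by A. The following stretches of GRCm39, each read 5′ to 3′ on the strand of its transcript, are 3′-UTR sites of 7 of the 12 genes with that 8-base match that fell most with D4 under the conditions given below, with the match in capitals.

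Uhmk1: gagctaacacaCTCTATAAccatttcttcc
Rnft1: actgtattatgCTCTATAAtatgactagta
Ifi204: tcatttgttgtCTCTATAActtctataact
Man1a2: tattctgtttgCTCTATAAatagccagcaa
Arpc5: cagcgcagaaaCTCTATAAactgctgtttt
Bcl2l2: aaaagaaaaagCTCTATAAatataaatata
Gbp7: tataggtcactCTCTATAAattaatggcaa

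These sites lie in the 3′-UTR of Uhmk1 at chr1:170026693-170026722 on the minus strand, Rnft1 at chr11:86387313-86387342 on the plus strand, Ifi204 at chr1:173574920-173574949 on the minus strand and Man1a2 at chr3:100471089-100471118 on the minus strand. The others lie in that of Arpc5 at chr1:152651223-152651252 on the plus strand, Bcl2l2 at chr14:55125543-55125572 on the plus strand and Gbp7 at chr3:142252421-142252450 on the plus strand. They were chosen by the capital letters, so sharing them is no finding. A match is a description of the sequence and not a measured binding site.

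Gene counts summed to 4956857 to 5338273 per D4 library and to 3409963 to 5308584 per mock library. Mock replicates 1 and 2 had the fewest counts, and mock replicate 8 stood apart from the others on the second principal component, which held 8.95% of the variance, while the first held 43.9% and separated D4 from mock. Without these 3 mock libraries, a choice made after seeing the data, 1872 genes were lower and 1747 higher with D4 than in the other 5, where all 8 gave 2030 and 1891. Mitochondrially encoded transcripts took 3.45% to 3.94% of the D4 counts and 2.98% to 3.34% of the mock counts. The cells expressed the markers of hepatocytes, of which all 12 were tested and 4 were lower, Ttr among them, and 3 higher. Their levels summed to 26277 to 28170 counts per 1000000 counts (CPM) with D4 and 23280 to 28404 with mock, mostly from Alb and Trf. The hepatocyte markers Cps1 (3.0 against 4.87 CPM on average) and Asgr1 (3.51 against 3.35) were low in both groups. Of the 12 Kupffer cell and macrophage markers 8 were at 0 and 3 more, among them Csf1r (0.826 against 0.32 CPM) and Lyz2 (0.188 against 0.026), had means under 1 CPM, and the only one tested was Cd68, for which the D4 libraries lay at 41.6, 34.5, 34.2 and 30.6 CPM and the mock libraries at 16.2 to 23 CPM (median 19.7). Cholangiocyte markers summed to 196 to 250 CPM with D4 and 150 to 177 with mock, and periportal hepatocyte markers to 724 to 793 against 448 to 510, of which Cdh1 alone held 408 and 169 CPM on average. Of the 10 periportal markers 3 (Arg1, Pck1 and Sds) had means under 1 CPM. Pericentral hepatocyte markers summed to 305 to 370 CPM against 298 to 355, overlapping, with 2 of 7 tested higher and 3 of 10 under 1 CPM. Endothelial markers summed to 2.8 to 8.29 CPM against 6.37 to 12.7, with 4 of 10 at 0 and 9 under 1 CPM. The one tested, Stab1, changed by −0.62 ± 0.23 (SE, adjusted p = 0.034). This call was lost (adjusted p = 0.0531 to 0.227) with DESeq2, with all libraries in 1 fit, with the second sequencing run alone, with the 5 mock libraries, and without mock replicate 1, 3 or 6 or D4 replicate 2, 3 or 4. Stellate cell and fibroblast markers summed to 302 to 327 CPM against 301 to 374, with 8 of 10 under 1 CPM and neither of the other 2 called. Of this sum Ecm1 alone held 297 CPM with D4 and 323 with mock on average. In bulk RNA, fewer cells of a type and less RNA per cell cannot be told apart. Levels are given throughout in CPM on one scale for all libraries, and a gene is called when its adjusted p from the quasi-likelihood test of edgeR is under 0.05.

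The target was measured first. Ttr stood at 2.07, 0.792, 1.38 and 0.60 CPM in the 4 D4 libraries, which is 3 to 11 counts per library. In mock it stood at 539.8 at the lowest, 675 at the median and 724 at the highest. Every D4 library lay far below every mock library, and the log2 fold change was −9.04 ± 0.14 (SE, adjusted p = 1.95e-26). Hao1, the target of the other parent duplex and an enzyme of glyoxylate formation, also fell with D4, with libraries at 22.4, 19, 19.5 and 16.4 CPM against 27.7 to 38.7 CPM (median 34.1) and a log2 fold change of −0.79 ± 0.11 (SE, adjusted p = 1.54e-07). F12, the coagulation factor, changed by 0.21 ± 0.07 (SE, adjusted p = 0.014) with overlapping groups, a call lost without D4 replicate 2 (0.17, adjusted p = 0.0898) and with the first sequencing run alone (0.19, adjusted p = 0.0663). Gapdh, the glycolytic enzyme used for normalization in PCR assays, stood at 735 ± 36 CPM against 741 ± 28 in mock and was not called (adjusted p = 0.87).

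After scaling between libraries, about as many genes were called lower as higher with D4 at 50 nM. Of 11341 genes tested, 2030 (17.9%) were lower and 1891 (16.7%) were higher than in mock, while the median log2 fold change over all genes was 0.01. The scaling centres the changes near 0, so a shift of all transcripts together would not be seen. Added ERCC spike-in RNA took 0.547% to 1.43% of the counts with D4 and 0.453% to 0.79% with mock, and such a shift was not tested. Most changes were small, with a median of −0.45 among the lower and 0.37 among the higher genes. Past 2-fold lay 272 lower genes (2.4% of those tested) and 142 higher genes (1.25%). All 4 D4 libraries lay outside the range of the 8 mock libraries for 1215 of the lower genes (10.7% of those tested) and 970 of the higher ones (8.55%).

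**Figure D1:**
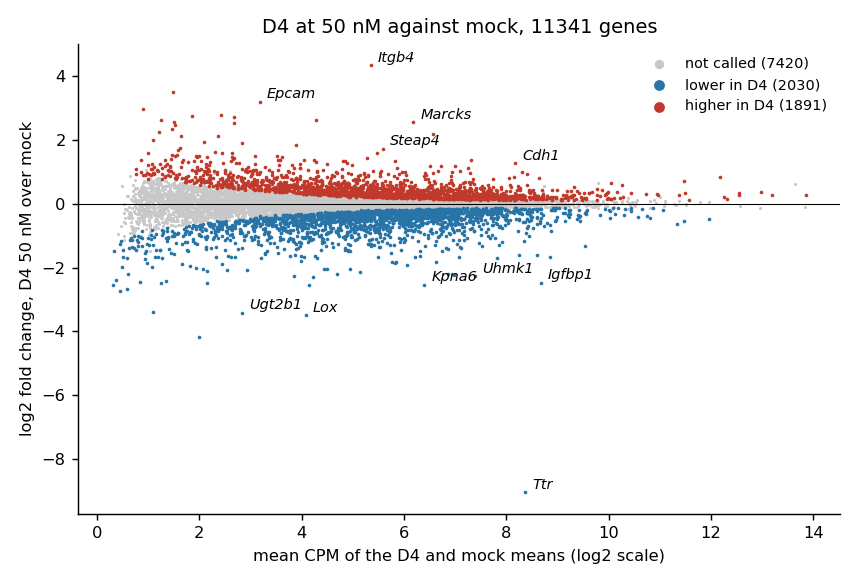
Each point is 1 of the 11341 genes tested, with the mean level of the D4 and mock groups (CPM, log2 scale) on the x axis and the log2 fold change of D4 at 50 nM over mock on the y axis. Called genes are blue where lower (2030) and red where higher (1891), with Ttr alone at −9.04 and Itgb4 the highest named point at 4.34.

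Among the largest falls after Ttr were genes of the extracellular matrix and a receptor gene of transforming growth factor β (TGF-β) signalling. Ltbp2, which encodes a microfibril protein of the family named latent TGF-β binding proteins, was at 0.565, 0.792, 0 and 0.20 CPM with D4 and at 3.9 to 10.04 CPM (median 7.83) in mock. Lox, the lysyl oxidase that cross-links collagen and elastin, was at 3.58, 1.58, 2.57 and 3.2 CPM against 23.6 to 40.8 CPM (median 29.6). Tgfbr1, the type I TGF-β receptor, was at 8.86, 8.91, 8.69 and 10.4 CPM against 35.2 to 49.3 CPM (median 42.6). None of the 3 genes had overlapping groups, which was a condition for naming the largest falls and rises. Their log2 fold changes were −4.17 ± 0.39 (SE, adjusted p = 2.77e-11), −3.49 ± 0.22 (SE, adjusted p = 1.23e-12) and −2.2 ± 0.13 (SE, adjusted p = 2.21e-17). Igfbp1, an insulin-like growth factor (IGF) binding protein that hepatocytes secrete, fell from a range of 534 to 878 CPM (median 698) in mock to 111, 136, 108 and 144 CPM with D4, a change of −2.47 ± 0.17 (SE, adjusted p = 5.40e-07). Its relative Igfbp7 changed by −2.49 and Axl, a receptor tyrosine kinase for the ligand Gas6, by −2.54. The median sum of the endothelial markers above was lower with D4 too (5.64 against 8.27 CPM), with overlapping groups, and their part in these falls was not tested.

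Other large falls concerned enzymes and transport proteins. Uhmk1, a serine/threonine kinase that binds RNA-processing factors, had the lowest adjusted p of all genes, with the D4 libraries at 57.7, 58.4, 59.4 and 55.8 CPM and the mock libraries at 257 to 290.2 CPM (median 285). Its log2 fold change was −2.27 ± 0.06 (SE, adjusted p = 4.46e-28). Kpna6, an importin α that carries proteins into the nucleus (gene at chr4:129537773-129566567), was at 25.6, 27.3, 21.1 and 25.2 CPM against 130.1 to 156 CPM (median 144), a change of −2.53 ± 0.08 (SE, adjusted p = 3.41e-26). Clic1, a chloride intracellular channel protein (chr17:35266900-35277725), was at 41.6, 48.5, 41.5 and 45.8 CPM against 189.8 to 223 CPM (median 206), a change of −2.22 ± 0.07 (SE, adjusted p = 1.95e-26). In all 3 genes the D4 libraries were close to each other and far below mock. The annotated 3′-UTRs of Kpna6 and Clic1 held none of the matches searched, that of Uhmk1 held the 8-base match printed above.

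Pi4k2b, a phosphatidylinositol 4-kinase, fell by 2.21 on the log2 scale and Rnft1, a membrane ubiquitin ligase, by 2.14. Ccne1, the cyclin that drives entry into S phase, stood at 5.65, 3.17, 6.52 and 4.6 CPM against 19.98 to 26.8 CPM (median 24.2) and changed by −2.25 ± 0.16 (SE, adjusted p = 6.73e-15). Tnnt2, the cardiac form of troponin T, changed by −2.3. Ugt2b1, an enzyme that adds glucuronic acid to steroids and drugs, stood at 1.3, 0.792, 1.18 and 1.4 CPM against 9.35 to 16.3 CPM (median 13.2), a change of −3.42 ± 0.25 (SE, adjusted p = 2.92e-14). It belongs to a family of closely related copies, among which uniquely aligned reads can be unevenly kept, so its level is uncertain. Of the 15 largest falls 3 had the 8-base match in the 3′-UTR (Ttr, Uhmk1 and Rnft1), 1 had the match to positions 2 to 8 (Tgfbr1), 2 the match to positions 2 to 7 followed by A, 2 that to positions 2 to 7 only, and 7 none. In Ttr the match is part of the target site, which pairs with the whole guide, so its place in this count was fixed by design.

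Among the largest rises were genes of epithelial adhesion and cell junctions. Itgb4, the integrin β subunit that joins epithelial cells to laminin in hemidesmosomes (chr11:115865333-115899239), stood at 66.3, 84.3, 76.8 and 82.5 CPM with D4. In mock it stood at 2.32 at the lowest, 4.05 at the median and 5.61 at the highest, and the change was 4.34 ± 0.12 (SE, adjusted p = 6.63e-27). Epcam, the epithelial cell adhesion molecule, stood at 11.7, 18.2, 18 and 17.6 CPM against 0.59 to 2.81 CPM (median 1.65), a change of 3.19 ± 0.21 (SE, adjusted p = 3.15e-15). Both genes were near the lower end of detection in mock, and groups without overlap were a condition for naming them. Cdh1, the E-cadherin of adherens junctions, stood at 399, 423, 429 and 379.7 CPM against 157 to 194 CPM (median 168) and changed by 1.27 ± 0.05 (SE, adjusted p = 8.62e-22). The tight junction genes Cldn6 and Marveld3 changed by 2.14 and 1.92. St14, which encodes the membrane protease matriptase, stood at 29.96, 35.8, 33.8 and 34 CPM against 3.37 to 7.68 CPM (median 5.22) and changed by 2.62 ± 0.14 (SE, adjusted p = 3.93e-18). Epcam is also a marker of cholangiocytes and Cdh1 one of periportal hepatocytes, and these same genes make up much of the higher marker sums given above. Of the 5 cholangiocyte markers tested 2 were higher, Epcam and the keratin Krt19 (189.5, 152, 143 and 140.3 CPM against 105 to 133 CPM (median 112)), while Sox9, Krt7 and Spp1 were not called. Of the 7 periportal markers tested 3 were higher, Cdh1 among them, and Ass1, Cyp2f2, Hal and Aldh1b1 were not called. The part of either cell type in these rises was not tested.

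Genes of signalling were found among the rises as well. Marcks, a substrate of protein kinase C at the membrane and actin cytoskeleton, stood at 110.2, 128, 130.1 and 127 CPM against 15 to 28.5 CPM (median 20.1), a change of 2.55 ± 0.09 (SE, adjusted p = 1.31e-23). Bmp4, a bone morphogenetic protein ligand of the TGF-β superfamily, stood at 18.7, 26.3, 22.9 and 25.2 CPM against 3.79 to 9.0 CPM (median 5.93), a change of 1.84 ± 0.16 (SE, adjusted p = 4.92e-12). Steap4, a metalloreductase of iron and copper uptake, stood at 52.8, 82.4, 63.2 and 97.3 CPM against 18.2 to 28 CPM (median 22.6), a change of 1.72 ± 0.15 (SE, adjusted p = 2.44e-07). In each of these 3 genes the lowest D4 library was above the highest mock library, as the condition for naming them required. Smaller levels but similar changes were found for Rcan2, an inhibitor of calcineurin (2.73), Cnksr1, a scaffold of Ras signalling (2.79), the deubiquitinating enzyme Usp43 (2.74) and Dennd2d, an exchange factor for Rab proteins (2.55). Nckap5 (3.52), Crct1 (2.2) and the organic anion transporter Slc22a26 (1.91) complete the 15 largest rises, of which none had the 8-base match, 1 had the match to positions 2 to 8 and 11 had none.

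**Figure D2:**
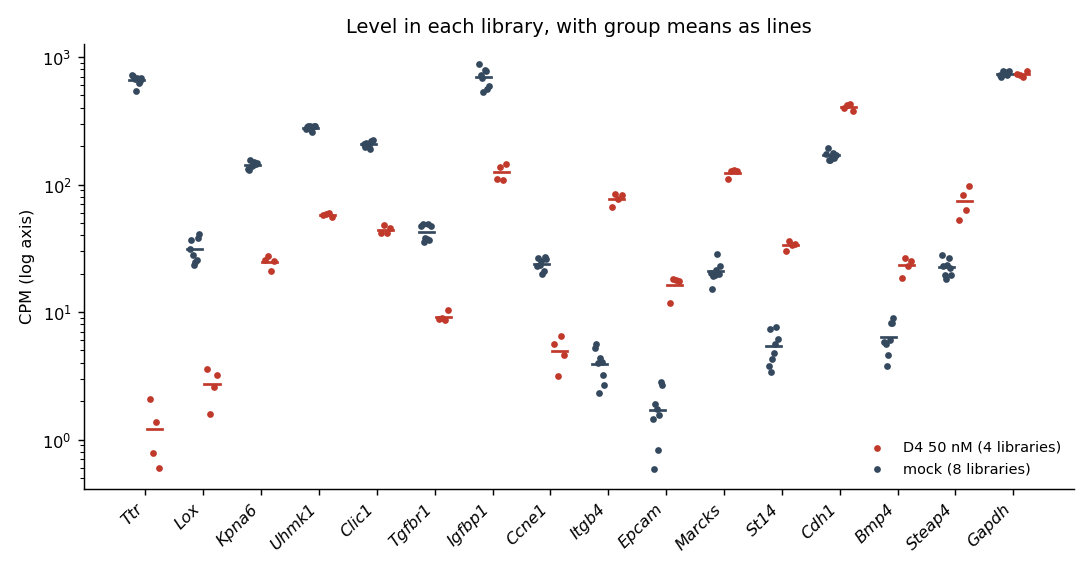
Points are single libraries, 4 with D4 at 50 nM and 8 mock, for 16 genes, with the level in CPM on a log axis and a line at each group mean. Apart from Gapdh, whose groups overlap, the D4 points of every gene shown lie wholly below or wholly above the mock points. For the largest falls and rises this was a condition for naming them.

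Genes with a match to the D4 seed in the 3′-UTR were more often lower than genes without one, and the share was highest for the longest match. Among 333 tested genes with the 8-base match, 41.7% were lower and 8.71% higher, with a median log2 fold change of −0.18. These include Ttr, the target. With the match to positions 2 to 8 only, 28.8% of 719 genes were lower and 12% higher (median −0.07). With the match to positions 2 to 7 followed by A, 25.8% of 1122 were lower and 12.7% higher (median −0.05), and with positions 2 to 7 only, 24.9% of 1714 were lower and 15.1% higher (median −0.02). Of the 6830 genes with none of these, 13.5% were lower and 19.3% were higher (median 0.04). Taking canonical in place of longest 3′-UTRs, the medians of the 5 groups in this order were −0.23, −0.10, −0.08, −0.04 and 0.04. The 3′-UTRs of genes with the 8-base match were longer, with a median of 3306 bases against 1406.5 bases for genes with no match. Among genes whose 3′-UTR has 1000 to 3000 bases, a limit chosen after seeing the data, 38.0% of 129 genes with the 8-base match and 13.4% of 3147 with none were lower. Genes with 1 match to positions 2 to 8 were lower in 32.3% of 946 cases, and those with 2 or more in 37.7% of 106. Of the 1984 lower genes with an annotated 3′-UTR, 32% had a match of 7 or more bases, beside 20.3% of all 10718 tested and 14.1% of the 1836 higher genes.

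**Figure D3:**
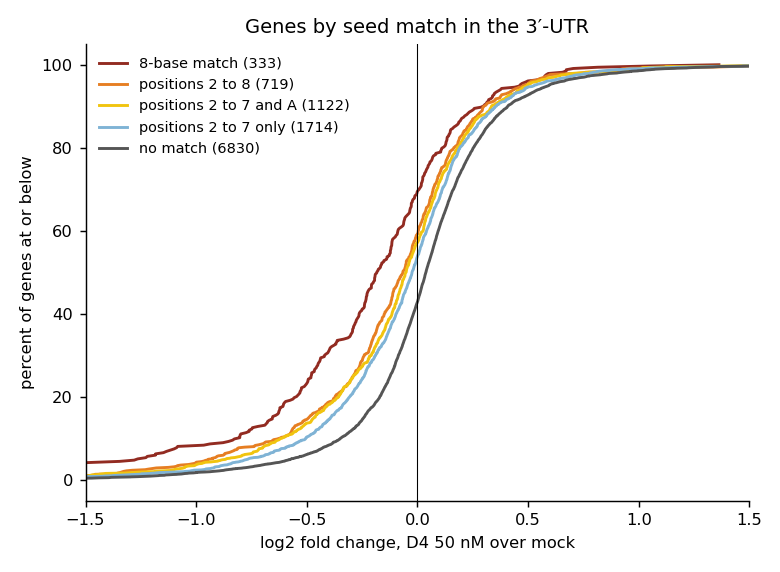
The curves give the percent of genes (y axis) at or below each log2 fold change of D4 at 50 nM over mock (x axis, drawn from −1.5 to 1.5) for 5 groups of genes set by the seed match in their 3′-UTR. The curve of the 333 genes with the 8-base match lies furthest to the left, that of the 6830 genes without a match furthest to the right.

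The genes with the 8-base match that fell most serve several processes. After Ttr, which is the target, Uhmk1 and Rnft1 came Ifi204, a member of an interferon-induced family of closely related copies, at 2.26, 3.37, 0.987 and 2.2 CPM against 4.87 to 13.7 CPM (median 9.55). Man1a2, a mannosidase that trims glycans in the Golgi, was at 23.7, 24.4, 30.8 and 21.2 CPM against 79.7 to 97.9 CPM (median 88.3). Arpc5, a subunit of the actin-nucleating Arp2/3 complex, was at 114, 96.4, 108 and 111 CPM against 309 to 380.3 CPM (median 339.5). The groups did not overlap in any of the 3, and the changes were −2.07 ± 0.30 (SE, adjusted p = 5.07e-06), −1.83 ± 0.09 (SE, adjusted p = 1.07e-19) and −1.69 ± 0.06 (SE, adjusted p = 5.03e-23). Bcl2l2, which encodes the anti-apoptotic protein Bcl-w, was at 23.6, 21, 17.4 and 23.6 CPM against 61.4 to 74.4 CPM (median 69.97), a change of −1.68 ± 0.09 (SE, adjusted p = 3.74e-18). The rest of the 12 were Fbxo8 (−1.78), Gbp7 (−1.65), Parp12 (−1.65), Dmd (−1.65) and C1galt1 (−1.49), with log2 fold changes in parentheses. They encode an F-box protein, a guanylate-binding protein, an ADP-ribosyltransferase, dystrophin and the enzyme that starts core 1 O-glycans. Each of the 12 had all 4 D4 libraries below all mock libraries, which was a condition for naming them.

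Genes of cell division were mostly lower. Of the 47 cell cycle genes 26 fell and 7 rose (median −0.48, against 0.01 over all genes), that is 55.3% lower beside 17.9% of all genes. Besides Ccne1 these were Ccnd3 (−1.17), Foxm1 (−1.12), Top2a (−0.87), Ube2c (−1.37) and Aurka (−1.17), which encode a G1 cyclin, a transcription factor of mitotic genes, a topoisomerase, a ubiquitin-conjugating enzyme and a kinase of mitosis. Ccnd3 stood at 34.7, 28.5, 24.5 and 28.6 CPM against 61.2 to 71 CPM (median 66.7), with no overlap. The rises included the immediate early transcription factor genes Fos (1.16) and Jun (0.41) and the cyclin and kinase of G1 Ccnd2 (1.34) and Cdk4 (0.29), which were named after their values were seen. Of the 29 targets of the tumour suppressor p53, 12 rose and 4 fell (median 0.17), that is 41.4% higher beside 16.7% of all genes. Btg2, an antiproliferative gene, rose from 82.9 to 115 CPM (median 112) in mock to 199, 219, 187 and 225 CPM, a change of 0.96 ± 0.07 (SE, adjusted p = 6.42e-14), and the kinase Plk2, Psrc1 and Ddit4l rose by 0.54, 1.36 and 1.22, while Ccng1 (−0.53) and Trp53inp1 (−0.59) fell.

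Genes of apoptosis changed in both directions, 7 fell (24.1%) and 8 rose (27.6%) of 29 tested (median −0.03), beside 17.9% and 16.7% of all genes. The largest changes among them were falls of inhibitors of cell death. Xiap, which blocks caspases and has the 8-base match in its 3′-UTR, stood at 73.3, 81.4, 81 and 74.3 CPM against 178 to 218 CPM (median 199), a change of −1.35 ± 0.06 (SE, adjusted p = 5.83e-20). Together with Bcl2l2 and Cflar (−0.45), an inhibitor of caspase-8, fell also Bid (−0.37), which promotes cell death. Bbc3, a p53 target that promotes cell death, rose by 0.82 with overlapping groups.

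The stress responses did not move as one. Of 24 endoplasmic reticulum stress genes (median −0.15) 11 fell (45.8%) and 3 rose (12.5%), beside 17.9% and 16.7% of all genes. The chaperone Hspa5 was at 1310.2 ± 159.6 CPM against 1727 ± 125 in mock (SD, n = 4 and 8) and changed by −0.40 ± 0.06 (SE, adjusted p = 1.70e-05). Manf (−0.40), Canx (−0.28) and Hyou1 (−0.29) were also lower. The kinase Eif2ak3 (0.50) and Atf6 (0.30), sensors of that response, rose with overlapping groups. In the integrated stress response 8 fell (27.6%) and 6 rose (20.7%) of 29 tested (median −0.06). The falls included Cth, the enzyme that makes cysteine (−0.87), Psat1 of serine synthesis (−0.66) and Slc7a11, the cystine transporter, and the rises Atf3 (0.68) and Ddit4 (0.68). Slc7a11 is also a target of the antioxidant factor NRF2 and stood at 117, 137, 133 and 149 CPM against 253 to 379 CPM (median 327), a change of −1.29 ± 0.12 (SE, adjusted p = 1.79e-06). Among NRF2 targets 10 fell (33.3%) and 5 rose (16.7%) of 30 tested (median 0.06). Gclm (−0.72), Srxn1 (−0.57), Nqo1 (−1.05) and Fth1 (−0.55), which serve glutathione synthesis, peroxiredoxin repair, quinone reduction and iron storage, were lower. The epoxide hydrolase Ephx1 (0.37) was higher.

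Interferon-response genes were more often lower than higher, 15 fell and 4 rose of 56 tested (median −0.14), that is 26.8% lower beside 17.9% of all genes and 7.14% higher beside 16.7%. Among the falls were Gbp7 (8.1, 6.34, 6.32 and 11 CPM against 20.2 to 33.7 CPM (median 24.1)), Ifi204 and the RNA sensor listed as Ddx58 (−0.36). Gbp7 and Ifi204 hold the 8-base match. Of the 4 rises the one with the lowest p was Tap1, a peptide transporter (0.53), with overlapping groups and an adjusted p of 0.0858 when all libraries shared 1 edgeR fit. The others, named after their values were seen, were Rsad2, Isg20 and Cxcl9. Rsad2, which encodes the antiviral protein viperin, stood at 136, 151, 119 and 304 CPM against 58.3 to 114 CPM (median 75.4), with no overlap and a change of 1.19 ± 0.27 (SE, adjusted p = 0.0058). With each library left out in turn this ranged from 0.80 (without D4 replicate 4) to 1.34, and the call was lost with all libraries in 1 fit (adjusted p = 0.0602). Isg20 (0.59) and Cxcl9 (0.48) had overlapping groups. The call of Isg20 was lost with all libraries in 1 fit, with the second run alone and without D4 replicate 1 or 4 (adjusted p = 0.0560 to 0.106), and that of Cxcl9 without D4 replicate 1 or 3 or mock replicate 4 (adjusted p = 0.0508 to 0.113). In the acute phase and NF-kB list 14 fell (31.8%) and 12 rose (27.3%) of 44 tested (median −0.04). Il1rn, the antagonist of the interleukin-1 receptor, changed by −1.7, the adhesion molecule Vcam1 by −0.89 and the chemokine Ccl2 by −0.45. Steap4, Cxcl16 (0.44) and Tnfaip3 (0.42) rose. For the RNA interference machinery 4 fell (14.8%) and 7 rose (25.9%) of 27 tested (median 0.08). Ago2, the Argonaute that cuts target RNA, stood at 313, 306, 348 and 286 CPM against 369 to 416 CPM (median 396) and changed by −0.33 ± 0.05 (SE, adjusted p = 1.59e-06), the decapping enzyme Dcp2 by −0.77 and the deadenylase Cnot6l by −0.56, while Tnrc6a (0.47), Dicer1 (0.38) and Pan2 (0.58) rose.

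Receptors and structural genes held some of the best separated changes. Ghr, the growth hormone receptor, stood at 69, 64.7, 67.1 and 53.4 CPM against 149 to 196 CPM (median 170.4), a change of −1.42 ± 0.07 (SE, adjusted p = 1.39e-17). Tgfbr2, the type II TGF-β receptor, stood at 89.9, 97.2, 95.2 and 103 CPM against 184 to 221 CPM (median 209.7), a change of −1.08 ± 0.06 (SE, adjusted p = 7.86e-18), so that both TGF-β receptor genes fell, and Bmpr2 changed by −0.66. Over the 40 receptor genes (median 0.06) 10 fell (25%) and 12 rose (30%), beside 17.9% and 16.7% of all genes. The rises included Erbb3 (0.73) and the activin receptor Acvr2b (1.69). In the list of the cytoskeleton and of hepatocyte dedifferentiation 14 fell (26.4%) and 22 rose (41.5%) of 53 tested (median 0.11). Besides Cdh1 and Epcam, the collagen gene Col4a2 (0.59), the lectin Lgals3 (0.58) and the keratin of simple epithelia Krt18 (0.37) rose. Actg1, the cytoplasmic γ-actin, rose by 0.30, with the limit that it has near-identical copies in the genome.

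Plasma protein genes rose more often than they fell. Of 67 plasma protein genes (median 0.11) 26 rose (38.8%) and 10 fell (14.9%), beside 16.7% higher and 17.9% lower of all genes. Albumin (Alb) rose from 12484 to 14396 CPM (median 13365) to 15718, 16545, 16028 and 16709 CPM, a change of 0.29 ± 0.04 (SE, adjusted p = 2.35e-06). The falls were led by the fibrinogen chain Fgg (−0.85), the coagulation genes F13b (−2.06) and F11 (−1.07), the thrombin inhibitor Serpind1 (−1.04) and Igf1 (−0.48). Complement genes counted 3 lower (13.6%) and 7 higher (31.8%) of 22 (median 0.11), and C9 and Mbl2 were among those that fell.

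Among cytochrome P450 and conjugating enzymes 10 fell (19.2%) and 15 rose (28.8%) of 52 tested, beside 17.9% and 16.7% of all genes. The falls were larger than the rises among those with the lowest p. Cyp2c70, which makes muricholic acids, stood at 40.9, 46.7, 41.5 and 42.4 CPM against 133 to 173 CPM (median 155), a change of −1.84 ± 0.07 (SE, adjusted p = 3.03e-22), and the carboxylesterase Ces1d changed by −1.69 and the sulfotransferase Sult1d1 by −1.09, while Cyp3a13 (0.59) and Ces1c (0.32) rose. All are members of families with close copies. Bile acid synthesis and transport had 5 lower (27.8%), among them the export pump Abcb11 (−0.41), and 4 higher (22.2%) of 18. The median was 0.14, but −0.12 both without the filter on low counts and among genes with a mean of at least 5 CPM. The urea cycle and amino acid list had 7 lower (16.7%) and 9 higher (21.4%) of 42, with Cdo1, which breaks down cysteine, at −0.97 and Cbs, which makes cystathionine, at 0.86. Glucose metabolism had 8 lower (28.6%), such as Ldha (−0.27), and 3 higher (10.7%) of 28. For hepatocyte transcription factors 8 fell (27.6%) and 4 rose (13.8%) of 29 tested, with the nuclear receptor Rora (−0.84) and Onecut2 (−1.07) lower and Foxa1 (0.47) higher.

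Ttr carries thyroxine and the retinol-binding protein. Of 18 genes of retinoid and thyroid hormone handling (median 0.14) 6 rose (33.3%) and 3 fell (16.7%), beside 16.7% higher and 17.9% lower of all genes. The retinal dehydrogenase Aldh1a1 changed by −0.45 ± 0.05 (SE, adjusted p = 2.82e-09), the retinol dehydrogenase Rdh10 by 0.56 ± 0.09 (SE, adjusted p = 5.42e-06) and the thyroid hormone receptor gene Thrb by −0.48 ± 0.11 (SE, adjusted p = 8.88e-04), the last with overlapping groups. Of the 25 genes of the asialoglycoprotein receptor, through which GalNAc conjugates enter hepatocytes, and of endocytosis, 7 fell (28%) and 3 rose (12%). The early endosome gene Eea1, with 2 matches to positions 2 to 8 in its 3′-UTR, stood at 86.9, 89.3, 90.6 and 93.7 CPM against 174 to 231 CPM (median 191), a change of −1.13 ± 0.07 (SE, adjusted p = 5.78e-15).

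In lipid metabolism, fatty acid and triglyceride synthesis had more rises than falls, with 11 higher and 3 lower of 27 (median 0.16), that is 40.7% and 11.1% beside 16.7% and 17.9% of all genes. Acacb, the acetyl-CoA carboxylase that makes malonyl-CoA at mitochondria, stood at 46.7, 72.1, 45.4 and 61.6 CPM against 15.8 to 25.4 CPM (median 20.8), a change of 1.44 ± 0.14 (SE, adjusted p = 5.99e-08), and the desaturase genes Scd1 and Fads1 rose by 0.35 and 0.34. Agpat2, an enzyme of triglyceride assembly (−1.06), and the citrate lyase Acly (−0.39) fell. Cholesterol synthesis was split, with 6 lower (24%), led by the sterol carrier Stard4 (−0.96), and 7 higher (28%), led by Fdft1 (0.33), of 25. In fatty acid oxidation 3 fell (8.11%) and 6 rose (16.2%) of 37 tested.

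Lysosomal and autophagy genes rose more often than they fell, 21 against 2 of 45 (median 0.14), that is 46.7% higher beside 16.7% of all genes. The macrophage marker Cd68, itself a lysosomal protein gene, was higher too, and of the other 11 Kupffer cell and macrophage markers 8, Adgre1 and Clec4f among them, were at 0 and none had a mean of 1 CPM. Gabarapl1, which labels autophagosome membranes, stood at 167, 163, 157 and 167 CPM against 99.7 to 117 CPM (median 110.3), a change of 0.58 ± 0.05 (SE, adjusted p = 2.93e-11), and the protease genes Ctsd and Ctsb rose by 0.51 and 0.33. Of the 13 mitochondrially encoded genes listed only 7 passed the filter on low counts. Of these 7 tested, 6 rose (85.7%, median 0.27), mt-Nd4 by 0.32 ± 0.04 (SE, adjusted p = 8.76e-08). The 78 nuclear-encoded respiratory chain genes counted 4 lower (5.13%) and 5 higher (6.41%), beside 17.9% and 16.7% of all genes. Of 79 cytosolic ribosomal protein genes, many of which have processed copies in the genome, 1 was called, Rps25 at −0.15, and this call was lost without D4 replicate 2 (−0.13, adjusted p = 0.124) or 4 (−0.14, adjusted p = 0.0812) and with the first run alone (−0.14, adjusted p = 0.0597).

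**Figure D4:**
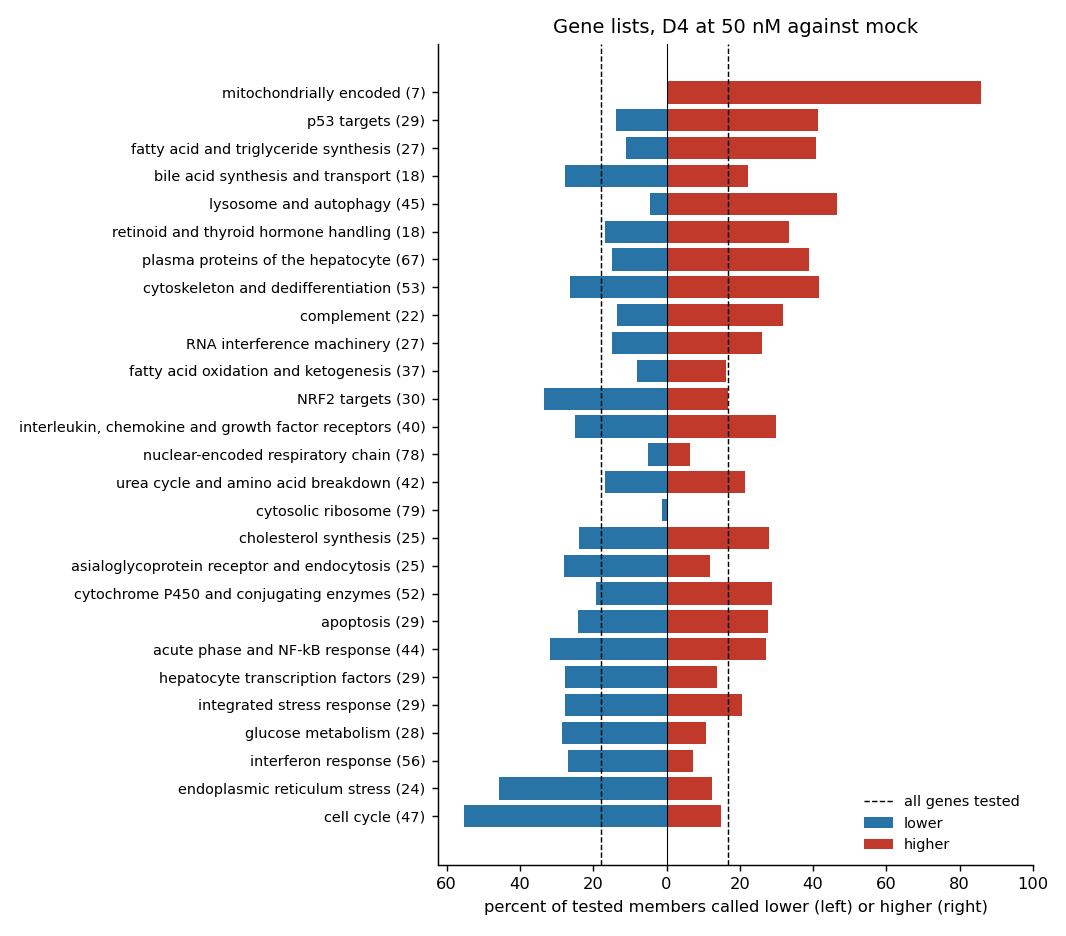
Bars give the percent of tested members of each gene list called lower (blue, to the left) or higher (red, to the right) with D4 at 50 nM against mock, with the number tested after each name and dashed lines at the shares of all genes, 17.9% and 16.7%. Cell cycle genes reach furthest to the left and mitochondrially encoded genes furthest to the right.

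No gene was called between D4 at 50 nM and the dose below. Against D4 at 10 nM, 0 of 11179 genes tested were lower (0%) and 0 were higher (0%) by edgeR, with 1129 at an unadjusted p under 0.05 and a lowest adjusted p of 0.314. DESeq2 called 1 gene lower and 0 higher, edgeR without the filter on low counts 14 lower and 46 higher, and edgeR with all libraries in 1 fit 11 lower and 19 higher. Replicate 2 of D4 at 10 nM stood apart in its group. It gave a chi-square per degree of freedom of 8.39 to 13.5 with the other replicates, against 3.97 to 6.52 among those. Without this library, edgeR called 1 gene lower. For Uhmk1 the difference of 50 nM from 10 nM was −0.21 ± 0.12 (SE) on the log2 scale, for Kpna6 0.26 ± 0.13 and for Itgb4 0.04 ± 0.10. For Ttr, tested in a fit without the filter on low counts, it was −0.29 ± 0.50 (95% interval −1.28 to 0.70, adjusted p = 0.863, edgeR), on 3 to 12 counts per library at 10 nM. These values do not show that the doses act alike.

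The lower doses are given by level only, as means ± SD over 4 libraries. Ttr was at 4.12 ± 1.23 CPM at 0.1 nM, 2.67 ± 1.79 at 1 nM, 1.5 ± 0.698 at 10 nM and 1.21 ± 0.663 at 50 nM, against 661 ± 58.4 in the 8 mock libraries. Uhmk1 was at 277 ± 20.7, 204 ± 4.24, 67.2 ± 13.4 and 57.8 ± 1.52 CPM at the same doses, against 279 ± 12.2 in mock. Itgb4 was at 4.11 ± 0.965, 16.7 ± 2.49, 75.7 ± 8.42 and 77.5 ± 8.1 CPM, against 3.94 ± 1.16 in mock. Ttr was thus near its lowest level at 0.1 nM already, where Uhmk1 and Itgb4 had means within the range of mock, and both had moved most of their way by 10 nM. The median log2 ratio to mock of the 333 genes with the 8-base match was 0.01 at 0.1 nM, −0.03 at 1 nM, −0.18 at 10 nM and −0.18 at 50 nM.

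**Figure D5:**
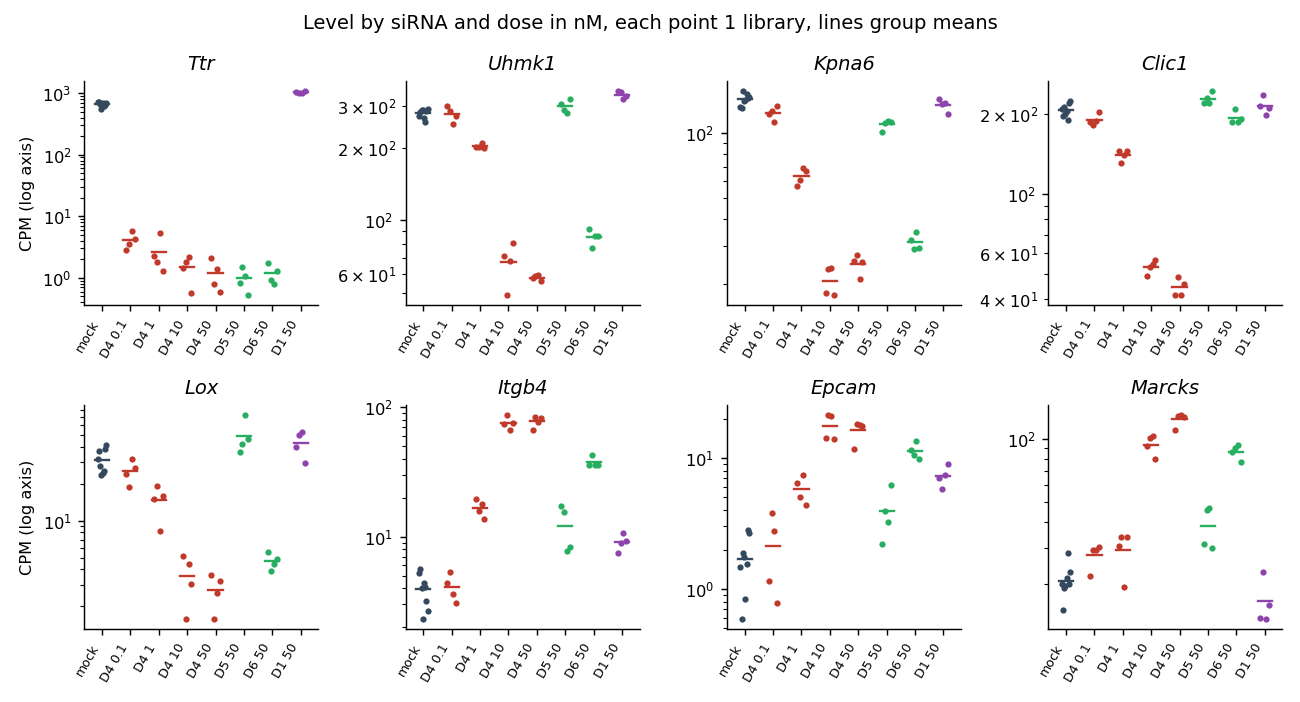
Each panel shows 1 gene, with every library as a point and group means as lines, the level in CPM on a log axis, and the groups mock, D4 at 4 doses in nM, and D5, D6 and D1 at 50 nM on the x axis. Ttr is low in all D4, D5 and D6 groups, whereas Uhmk1, Kpna6, Clic1, Lox, Itgb4, Epcam and Marcks have group means furthest from mock with D4 at 10 and 50 nM among the groups shown.

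D5 has the same sequence and dose as D4 and differs by the GNA-G nucleotide at guide position 6. In the direct comparison 1526 of 11064 genes (13.8%) were lower and 1003 (9.07%) were higher with D4 than with D5. Ttr did not differ detectably, with D5 at 0.99 ± 0.425 CPM and D4 at 1.21 ± 0.663 (SD, n = 4 each), a log2 difference of 0.26 ± 0.58 (SE) and a 95% interval of −0.88 to 1.40 (adjusted p = 0.833 from an edgeR fit without the filter on low counts). The interval therefore leaves room for differences of more than 2-fold, on 2 to 11 counts per library. Uhmk1 was at 306, 288, 279 and 321 CPM with D5, all above the D4 libraries, and the log2 difference of D4 from D5 was −2.37 ± 0.07 (SE, adjusted p = 1.38e-19). Clic1 was at 220.0, 229, 219 and 243 CPM with D5, a difference of −2.36 ± 0.07 (SE, adjusted p = 6.34e-19). Lox was at 36.2, 42.1, 72.3 and 46 CPM, a difference of −4.16 ± 0.28 (SE, adjusted p = 1.16e-07). In all 3 genes the D5 libraries lay within or above the range of mock, and the D4 libraries far below. The other large falls in this comparison were Ltbp2 (−4.52), Ugt2b1 (−3.73), Igfbp7 (−3.02), Ccn4 (−2.38) and Axl (−2.36).

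Itgb4 and Epcam were also higher with D4 than with D5. Itgb4 was at 17.1, 15.5, 7.79 and 8.36 CPM with D5, between mock and D4, and the difference was 2.67 ± 0.18 (SE, adjusted p = 4.61e-08). Epcam was at 2.21, 3.92, 3.25 and 6.27 CPM, a difference of 2.05 ± 0.24 (SE, adjusted p = 1.79e-07). The other large rises were Rcan2 (2.42), Steap4 (2.26), Cnksr1 (2.22), Usp43 (1.93), Nckap5 (1.88) and Dennd2d (1.76). Some changes against mock named above were found with D5 too. Of the falls, Ccne1 was at 13.2, 12.9, 14.5 and 19.6 CPM with D5 and Kpna6 at 102, 111, 114 and 113 CPM. Both lay below all mock libraries, while Igfbp1, Tgfbr1 and Pi4k2b with D5 overlapped with mock. Of the rises, St14 and Marcks with D5 lay above all mock libraries but below D4. Cldn6 with D5 (4.14, 3.71, 2.16 and 6.79 CPM) overlapped with both. Plk2 was at 262, 295, 306 and 255 CPM with D5, Btg2 at 184, 193, 162 and 187 CPM and Tnrc6a at 202, 208, 222 and 168 CPM, all above the mock libraries. Psrc1 and Ddit4l had no D5 library above the range of mock, and Dicer1 and Pan2 with D5 overlapped with mock. Of the genes with the 8-base match, 32.1% of 327 were lower and 5.2% higher with D4 than with D5 (median −0.17), against 10.07% lower and 10.02% higher of 6715 with no match (median 0.03). Of all genes 13.8% were lower and 9.07% higher in this comparison. In the cell cycle list 12 of 47 genes were lower (25.5%) and 7 higher (14.9%) with D4 (median −0.18), and in that of endoplasmic reticulum stress 9 of 24 lower (37.5%) and 0 higher. Of the acute phase and NF-kB genes 18 of 43 were lower (41.9%) with D4 than with D5 and 2 higher. Of the ribosomal protein genes 18 of 78 were higher (23.1%, median 0.13).

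With D6, whose GNA-isoG nucleotide sits at the same place, levels were not tested against D4 here and are given side by side at 50 nM. Uhmk1 was at 85.2 ± 6.17 CPM, Kpna6 at 31.4 ± 2.68 against 24.8 ± 2.63 with D4, and Clic1 at 193 ± 10.3 against 44.4 ± 3.42 with D4. Ltbp2 was at 1.16, 0.926, 0.201 and 0.563 CPM with D6, and Lox at 5.6, 3.89, 4.43 and 4.88 CPM. Tgfbr1 was at 10.6, 9.81, 10.5 and 8.82 CPM, and in all of Ltbp2, Lox and Tgfbr1 every D6 library was below every mock library. Itgb4 was at 37.5 ± 3.27 CPM. The median log2 ratio to mock of the genes with the 8-base match was −0.11 with D6, −0.02 with D5 and −0.18 with D4.

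D1 is a parent duplex of another sequence at the same dose. Against it, 1964 of 11133 genes (17.6%) were lower and 1943 (17.5%) higher with D4. The 2 targets differed in opposite directions, with Ttr at 1028 ± 29.1 CPM with D1 and a difference of −9.69 ± 0.12 (SE, adjusted p = 7.97e-32), and Hao1 at 1.69, 0.461, 5.19 and 1.72 CPM with D1 and a difference of 3.16 ± 0.32 (SE, adjusted p = 4.33e-07). Ttr with D1 was above its mock level of 661 ± 58.4 CPM. Some changes against mock named above were found with D1 too. Ccne1 was at 14, 12.7, 12.6 and 11.5 CPM with D1 and Igfbp1 at 447, 337, 407 and 347 CPM. These and Tnnt2 lay below all mock libraries, and Epcam, St14 and Marveld3 above them. Kpna6, Clic1 and Lox with D1 overlapped with mock. The log2 difference of D4 from D1 was −3.94 ± 0.23 (SE, adjusted p = 3.56e-11) for Lox, −3.96 ± 0.24 (SE, adjusted p = 5.06e-14) for Ugt2b1 and −3.45 ± 0.29 (SE, adjusted p = 7.32e-11) for Igfbp7. The chemokine Ccl9 was at 18.4, 18.5, 16.1 and 15.2 CPM with D1 and 2.3 ± 1.34 with D4 (SD, n = 4), and the steroid dehydrogenase Hsd3b2, the receptor subunit Il18rap and the mucin Muc3 differed by −4.01, −3.33 and −3.0.

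Among the genes higher with D4 than with D1 were Itgb4, at 7.5, 9.0, 10.7 and 9.3 CPM with D1 and a difference of 3.08 ± 0.12 (SE, adjusted p = 2.50e-18), and Marcks, at 13.8, 23.1, 13.7 and 16 CPM and a difference of 2.88 ± 0.11 (SE, adjusted p = 5.03e-17). Actg1 was at 45, 48.7, 44 and 39.4 CPM with D1, a difference of 2.44 ± 0.08 (SE, adjusted p = 8.01e-21), and the deubiquitinating enzyme Usp43, the myosin Myh14, the scaffold Dlg5 and the cadherin Cdh17 differed by 2.61, 2.42, 1.97 and 1.97. For Actg1 and Dlg5 the D4 mean was 240.0 and 92.4 CPM. The rise of Actg1 with D4 against mock, given above, was far smaller than its difference from D1. Cell cycle genes, which were mostly lower with D4 than in mock, were mostly higher with D4 than with D1, with 33 of 47 genes called higher and 5 lower (median 0.59). The shares of all genes in this comparison were 17.6% lower and 17.5% higher. Of the P450 and conjugating enzymes 25 of 52 were lower and 5 higher with D4, and of the plasma proteins 22 of 67 were lower and 5 higher. Against mock these lists had 10 of 52 lower and 15 higher, and 10 of 67 lower and 26 higher. A difference of D4 from D1 can come from either duplex, and D1 was not tested against mock. Genes with the 8-base match to the D4 seed were lower with D4 than with D1 in 39.5% of 329 cases (median −0.22), those with no match in 12.9% of 6736 (median 0.04).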

How the data were processed

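Counts were analysed for 104 libraries of primary mouse hepatocytes, of which the text compares D4 at 50 nM (4 libraries) with mock (8), D4 at 10 nM (4), D5 at 50 nM (4) and D1 at 50 nM (4). The deposited counts are whole reads per gene that the authors made by filtering reads with fastq-mcf, aligning them to GRCm39 with STAR and counting uniquely aligned reads with featureCounts 2.0.2 at a minimum mapping quality of 10. The deposited tables also hold the authors' own fold changes and p-values from DESeq2 1.32.0, of which only the gene symbols were used here.

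The 2 sequencing runs of each library were summed, since they differed by sampling noise only (chi-square per degree of freedom 0.990 to 1.07), and the 92 rows of ERCC spike-ins were left out of totals and fits. Replicates of a group differed by more than sampling noise (1.67 to 13.5 over 52 pairs) and were counted separately. Each comparison was fitted on its own groups with the quasi-likelihood test of edgeR 4.0.16 under R 4.3.3, with TMM factors, low counts filtered by filterByExpr and a robust fit, with Benjamini-Hochberg adjustment over all genes tested and a threshold of 0.05. Levels are CPM with TMM factors over all libraries. The SE of a log2 fold change was taken from the fold change and its F statistic. The totals of 3409963 to 5691251 counts per library limit the precision for genes of a few CPM.

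In a test on simulated data (11209 genes), means were taken from mock alone and library sizes from D4 at 50 nM and mock. Of genes changed by 2 on the log2 scale in either direction 100% were called. The shares were 87.9% of those lowered and 97% of those raised by 1, and 66.7% and 65.6% of those lowered and raised by 0.5. Among 11013 unchanged genes there were 15 calls.

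Named genes were Ttr, Hao1, F12 and Gapdh, the 15 largest falls and 15 largest rises against mock, the 12 largest falls with the 8-base match, members of each gene list (the 6 with the lowest p and the 2 with the highest level), and the 8 largest falls and rises of the comparisons with D5 and D1. The largest changes were taken among genes with an adjusted p under 0.05, a mean of at least 5 CPM in the higher group, no overlap of the groups, and a gene name that is not a clone or model number. A few genes that this rule names are not reported here. Members and lists were chosen with earlier results of these data known, so lists are described by counts and medians without a test.

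Seed matches were searched on the transcript strand of 3′-UTRs built from GENCODE M39 (GRCm39), taking the longest of each gene, which 10718 of the tested genes had. Alternatives were DESeq2 1.42.0 with a beta prior, its size factors (RLE) in edgeR, no filter, a mean of at least 5 CPM, each run alone, the replicate number as a block, all 104 libraries in 1 fit, each library left out in turn, other 3′-UTRs, and 5 mock libraries only.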

Additional observations from a re-analysis of the deposited data

Results flagged for a closer look

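In 19 of 284 groups of libraries (142 genes named in the comparison with mock, each in the D4 50 nM and the mock group), 1 library stood further from the nearest of the others than Dixon's 95% critical value allows. Chance flags about 1 in 20 groups. Values are in CPM, with the nearest other library of the group in parentheses. With D4 at 50 nM these were Nckap5 in replicate 3 at 4.54 (nearest 5.35), Dennd2d in replicate 3 at 6.91 (nearest 11.7), Tgfbr1 in replicate 4 at 10.4 (nearest 8.91) and Marcks in replicate 1 at 110.2 (nearest 127). The others with D4 were Fdft1 in replicate 4 at 221 (nearest 239), Epcam in replicate 1 at 11.7 (nearest 17.6), Tap1 in replicate 4 at 33.2 (nearest 24.9) and Slc22a26 in replicate 4 at 12.6 (nearest 10.9). Among the mock libraries they were Btg2 in replicate 3 at 82.9 (nearest 100.04), F13b in replicate 5 at 15.4 (nearest 12.8), C1galt1 in replicate 5 at 133 (nearest 154), Ctsd in replicate 4 at 431 (nearest 504) and Pan2 in replicate 8 at 25.5 (nearest 35.2). The remaining mock values were Ces1d in replicate 8 at 36.4 (nearest 31.4), Col4a2 in replicate 4 at 236 (nearest 264), Krt19 in replicate 8 at 133 (nearest 116), Cldn6 in replicate 7 at 3.0 (nearest 1.36), Stard4 in replicate 2 at 126 (nearest 118) and mt-Nd4 in replicate 6 at 2707 (nearest 2567). Mock replicate 8 was the library concerned in 3 of the 11 mock groups, and D4 replicate 4 in 4 of the 8 D4 groups. Each of these 19 genes kept its call against mock when any single library was left out.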

How the results depend on the processing

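The counts of genes lower and higher than in mock, D5 or D1 stayed within 1.5 times the reported counts under every alternative run. With each library left out in turn, 1729 to 2039 genes were lower and 1525 to 1844 higher than in mock, 1300 to 1500 lower and 784 to 951 higher than with D5, and 1748 to 1942 lower and 1675 to 1842 higher than with D1. Against D4 at 10 nM, where 0 genes were called in either direction, the counts rose to 14 lower and 46 higher without the filter on low counts, to 11 and 19 with all libraries in 1 fit, and to 1 lower with DESeq2. Leaving out a library gave 0 to 1 lower and 0 higher. The cause was not tested.

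The labels number the replicates in each group, but deviations of libraries with the same number correlated at −0.10 to 0.12, so the numbers were not taken as pairs. With the replicate number as a block, 1794 genes were lower and 1550 higher than in mock, 0 and 0 than at 10 nM, 1525 and 1016 than with D5, and 2023 and 2010 than with D1. Of the genes followed against mock, Rps25 (−0.10, adjusted p = 0.271, edgeR) and Rsad2 (1.20, adjusted p = 0.137) were not called with the block.

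The log2 fold change of Gapdh, which was not called, turned to 0.0072 with the block and to 0.013 without D4 replicate 3, and ranged from −0.044 to 0.013 with each library left out. The other 141 genes followed against mock kept their direction under every alternative. F12, Rps25, Tap1, Rsad2, Isg20, Cxcl9 and Stab1 lost their call under the settings given with them and, for Rps25 and Rsad2, with the block. With RLE size factors, the medians of all 27 gene lists moved by less than the spread between D4 libraries. The median of the bile acid genes, 0.14, turned to −0.12 without the filter on low counts and among genes of at least 5 CPM. Medians near 0 changed sign under other settings for the lists of cholesterol, P450, ribosome and urea cycle genes.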
